A study of Homo sapiens with 4 samples.

Results

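SR proteins and heterogeneous nuclear ribonucleoproteins (hnRNPs) are the RNA-binding proteins that help decide which exons of a nascent transcript are joined. SR proteins carry an RNA recognition motif and a tail rich in arginine and serine. They mostly bind exons and bring in the spliceosome, and the TRA2 proteins, the human counterparts of Drosophila transformer-2, act in the same way on purine-rich enhancers. hnRNPs coat nascent RNA and often oppose exon inclusion, and several of them also act in mRNA export, translation or decay. Many genes of both families hold a poison exon, so that a high level of the protein lowers its own mRNA through nonsense-mediated decay, which a value per gene cannot show. In other cancer cells, the transcription factor MYC is known to raise genes of both families, among them SRSF1, HNRNPA1 and HNRNPA2B1.

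The genes described here are the 31 symbols of the SRSF, TRA2 and HNRNP families listed by name. The rule uses no measured value, but the set was picked with earlier results of these data known. They make up 32 rows of the 57815 rows of the deposited table, since SRSF8 is listed under 2 gene identifiers at the same locus. RNA-Seq measured polyadenylated RNA in 2 biological replicates of 3′ WRE-Mut cells and 2 of control cells. 3′ WRE-Mut cells are a clone of HCT116, an established line of human colorectal carcinoma, in which CRISPR/Cas9 removed TBE1, a binding element for T-cell factors in the MYC 3′ Wnt-responsive element, from both alleles. Control cells are parental HCT116 with a wild type element. Since 1 clone gave both 3′ WRE-Mut libraries, the loss of TBE1 and any other difference between the clone and the parental population cannot be told apart.

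Values are FPKM, the fragments mapped to a gene scaled by its length and by the size of the library, so that levels can be compared between genes. Read counts were not used here, and the depth of each library is unknown. Between 27585 and 29356 rows were above 0 FPKM in the 3′ WRE-Mut libraries, against 26851 and 27813 in the control libraries. MYC, the gene next to the deleted element, had 48.04 and 34.2 FPKM in 3′ WRE-Mut cells and 111 and 113 FPKM in control cells (log2 fold change −1.44, limma adjusted p = 0.0216 over protein-coding genes and 0.149 with every tested gene). Of 8 colon epithelial markers, EPCAM, CDH1, KRT8, KRT18, KRT19 and CDX2 were expressed in every library, while VIL1 and LGALS4 were close to 0 in all 4. Their summed level was 1919 and 1809 FPKM in 3′ WRE-Mut cells and 2864 and 2619 FPKM in control cells. The markers differed in direction. KRT18 fell (log2 fold change −1.46, limma adjusted p = 0.0237 over protein-coding genes), CDH1 had 49.5 and 73.0 FPKM in 3′ WRE-Mut cells and 42.3 and 24.3 FPKM in control cells (log2 fold change 0.89, limma adjusted p = 0.103), and EPCAM, KRT8, KRT19 and CDX2 had log2 fold changes of −0.30, −0.30, −0.56 and −1.43 without passing the threshold. Of 8 markers of other cell types, CD68 and COL1A1 were above 1 FPKM in every library, PTPRC, CD3E, COL1A2, DCN and ALB were close to or at 0, and PECAM1 had no row. The summed level of this list was 89.8 and 99.1 FPKM in 3′ WRE-Mut cells and 54.5 and 58.6 FPKM in control cells, and the part of these markers in the results below was not tested. Each library is bulk RNA of HCT116 cells, so fewer cells that express a gene and less of its RNA per cell cannot be told apart.

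The splicing factors covered a 263-fold range of mean levels. HNRNPC, which binds uridine tracts and packages nascent transcripts, had the highest mean over the 4 libraries, followed by HNRNPA1, HNRNPH1, HNRNPL and HNRNPA2B1. All 5 are hnRNPs. With HNRNPD, SRSF9 and HNRNPK, 8 rows had a mean over 100 FPKM, 21 had a mean between 20 and 100 FPKM, and 3 rows, HNRNPUL2 and both SRSF8 rows, were lower. Summed over the families, the 18 hnRNP rows came to 1585 and 2587 FPKM in 3′ WRE-Mut cells, against 1994 and 2329 FPKM in control cells. The 14 SR and TRA2 rows came to 576 and 816 FPKM in 3′ WRE-Mut cells, against 608 and 668 FPKM in control cells. For both families the 3′ WRE-Mut replicates lay on either side of the control replicates, so the summed FPKM did not separate the groups. Relative to the summed FPKM of tested protein-coding genes, hnRNPs came to 0.234% and 0.318% in 3′ WRE-Mut cells and 0.276% and 0.314% in control cells. SR and TRA2 rows came to 0.0852% and 0.100% in 3′ WRE-Mut cells and 0.0843% and 0.0901% in control cells. These shares did not separate the groups either.

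**Figure D1:**
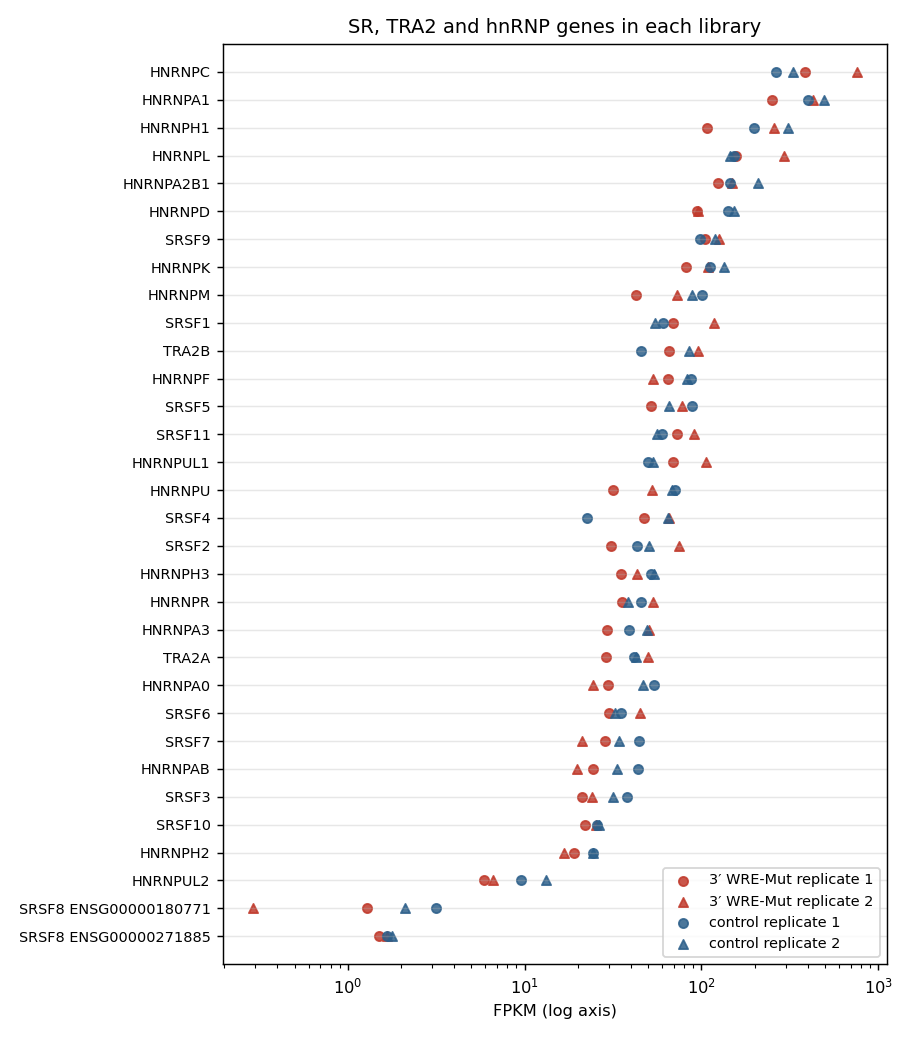
FPKM of each SR, TRA2 and hnRNP row (vertical axis, ordered by mean level) in the 4 libraries, on a log axis. Red points are 3′ WRE-Mut and blue points control cells, circles replicate 1 and triangles replicate 2. HNRNPC reached 757 FPKM in 3′ WRE-Mut replicate 2, while the SRSF8 rows stayed at or under 3.15 FPKM.

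The comparison asked how the transcripts of these splicing factors differ in cells with a reduced MYC level. No member passed an adjusted p of 0.05. Limma, fitted to log2(FPKM + 1), called 0 of the 32 rows over the 14815 tested genes, where it called 0.0877% higher and 0.101% lower, and 0 of the 30 rows with a protein-coding entry over the 11631 protein-coding genes, where it called 4.02% higher and 4.31% lower. An unadjusted p under 0.05 was reached by 0 higher and 6 lower rows in the first fit (background 11.0% and 11.2%) and by 2 higher and 9 lower rows in the second (background 14.6% and 15.6%). Adjusted p-values of the members from limma ran between 0.164 and 0.965 in the first fit and between 0.0538 and 0.955 in the second. With 2 libraries against 2, an exact two-sided permutation test of a single gene cannot go below p = 0.333. The values below are therefore given as measured, with limma's standard errors (SE) and adjusted p-values over protein-coding genes unless stated otherwise.

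The families are described by their counts and medians, and the difference between them was not tested. Of 18 hnRNP rows, 14 had a log2 fold change below 0 and 4 above it, with a median of −0.44. Of 14 SR and TRA2 rows, 7 were below 0 and 7 above, with a median of −0.019, and 0.063 without the SRSF8 rows. By library, the median difference from the control mean was −0.58 (3′ WRE-Mut replicate 1) and −0.26 (replicate 2) for the hnRNP rows, and −0.19 and 0.23 for the SR and TRA2 rows, whose sign thus turned with the library. Over all 32 rows the median was −0.31, against −0.026 over all genes tested and −0.022 over protein-coding genes, of which 51.5% were below 0. With 3′ WRE-Mut replicate 1 left out the median of the 32 rows was −0.038, against −0.028 over all genes tested, and with replicate 2 of the clone left out it was −0.51. Over the 3857 protein-coding genes whose mean reached 20 FPKM, the median was 0.14. By library, their median difference from the control mean was 0.073 (3′ WRE-Mut replicate 1) and 0.20 (replicate 2). Both 3′ WRE-Mut libraries lay below both control libraries for 15 rows (10 hnRNP, 5 SR) and above both for 5 rows (3 hnRNP, 2 SR), and the groups overlapped for 12. Over protein-coding genes, 32.0% lay below and 30.9% above without overlap. Among the 3857 protein-coding genes whose mean reached 20 FPKM, 24.4% lay below and 39.7% above.

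**Figure D2:**
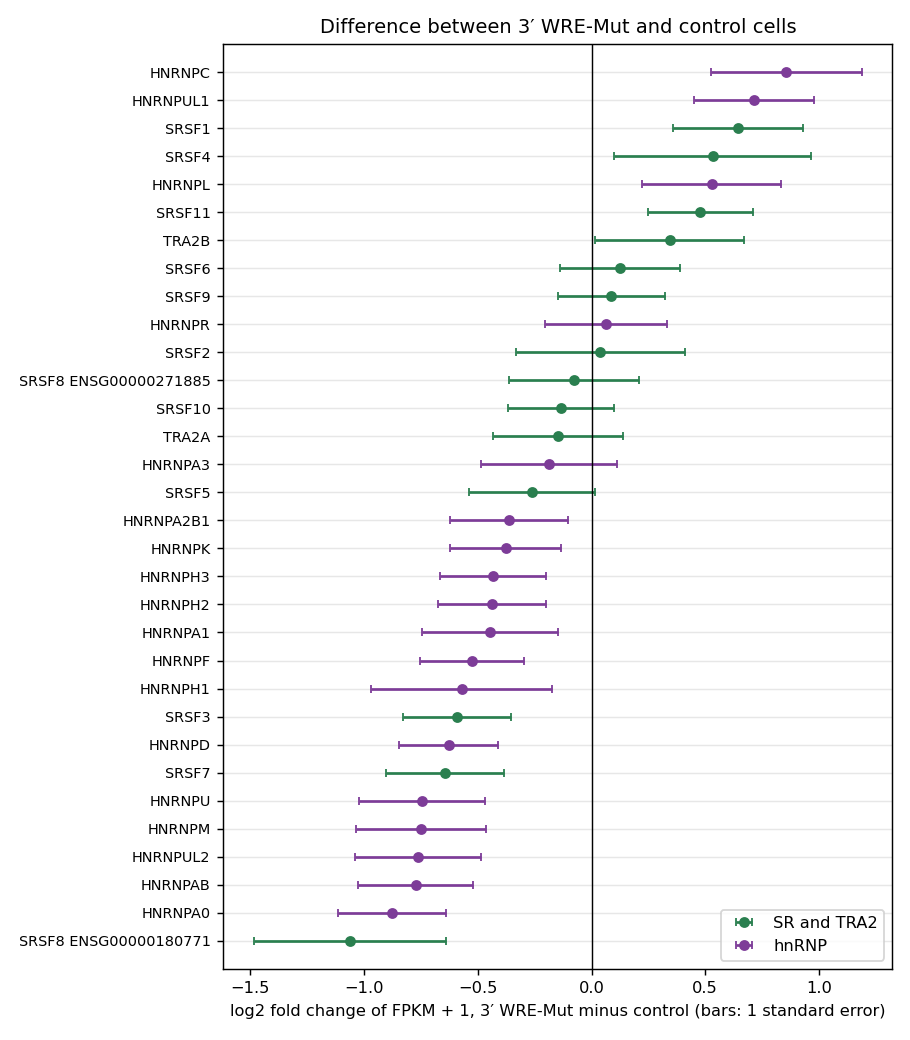
Log2 fold change of FPKM + 1 (3′ WRE-Mut minus control, horizontal axis) for each row, with bars of 1 SE from limma over protein-coding genes, or over all tested genes for the SRSF8 rows. hnRNPs are purple and SR and TRA2 genes green. Values run between −1.06 for an SRSF8 row and 0.86 for HNRNPC, and none passed an adjusted p of 0.05.

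Among hnRNPs of the A/B type and their relatives, HNRNPA0, HNRNPAB and HNRNPD were lower in both 3′ WRE-Mut libraries. HNRNPA0 (chr5:137087075-137090039 of hg19), which binds AU-rich elements of mRNAs, had 29.7 and 24.4 FPKM in 3′ WRE-Mut cells and 53.9 and 46.9 FPKM in control cells. Both 3′ WRE-Mut libraries were well under both control libraries (log2 fold change −0.88, SE 0.24, 95% interval −1.42 to −0.34, limma adjusted p = 0.0538, or 0.164 when fitted with every tested gene). HNRNPA0 was the member closest to the threshold. It did not pass with a pseudocount of 0.1 or 0.5 (limma adjusted p = 0.0633 and 0.0577). Nor did it pass without the variance trend (limma adjusted p = 0.0691) or with no filter on low values (limma adjusted p = 0.190). The replicate block gave a limma adjusted p of 0.0145 (11.0% of protein-coding genes called higher and 13.6% lower). It passed after median-ratio scaling of the libraries (limma adjusted p = 0.0482, where 3.59% of protein-coding genes were called higher and 4.20% lower), after quantile normalization (limma adjusted p = 0.0363, 5.64% higher and 5.45% lower) and over genes whose mean reached 5 FPKM (limma adjusted p = 0.0438, 6.52% higher and 5.96% lower). Over all alternatives its limma adjusted p ranged between 0.00291 without 3′ WRE-Mut replicate 1 and 0.346 without control replicate 1. HNRNPD and HNRNPM also passed after quantile normalization (limma adjusted p = 0.0385 and 0.0453).

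HNRNPAB (chr5:177631508-177659792), a relative of HNRNPA0 and HNRNPD, had 24.2 and 19.8 FPKM in 3′ WRE-Mut cells and 43.9 and 33.2 FPKM in control cells, again with no overlap (log2 fold change −0.77, SE 0.25, limma adjusted p = 0.0852). HNRNPD (chr4:83273651-83305180), also known as AUF1, which targets mRNAs with AU-rich elements for decay, had 94.03 and 95.7 FPKM in 3′ WRE-Mut cells and 141 and 153 FPKM in control cells. Its replicates were the closest of the 3 within 3′ WRE-Mut cells (log2 fold change −0.63, SE 0.22, 95% interval −1.13 to −0.13, limma adjusted p = 0.0973).

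HNRNPA1, HNRNPA2B1 and HNRNPA3, also of the A/B type, overlapped between the groups. HNRNPA1 had 249 and 426 FPKM in 3′ WRE-Mut cells and 400.1 and 493 FPKM in control cells (log2 fold change −0.45, SE 0.30, limma adjusted p = 0.341). Only 3′ WRE-Mut replicate 1 was below the controls, and the table shares the locus of HNRNPA1 among 11 genes. HNRNPA2B1 had 123 and 149 FPKM in 3′ WRE-Mut cells and 145 and 210.4 FPKM in control cells (log2 fold change −0.36, SE 0.26, limma adjusted p = 0.375). HNRNPA3 had 29.2 and 50.4 FPKM in 3′ WRE-Mut cells and 39.1 and 49.2 FPKM in control cells. The 95% intervals of the log2 fold change were −1.12 to 0.23 for HNRNPA1 and −0.95 to 0.23 for HNRNPA2B1, so that a fall by as much as 1 on the log2 scale lies within the first of them.

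HNRNPM, HNRNPU and HNRNPUL2 were lower in 3′ WRE-Mut cells without overlap. HNRNPM (chr19:8509651-8553998 of hg19), which binds GU-rich sites and is known from the splicing changes of epithelial-mesenchymal transition, had 42.9 and 72.6 FPKM in 3′ WRE-Mut cells and 101 and 88.1 FPKM in control cells (log2 fold change −0.75, SE 0.29, limma adjusted p = 0.119). HNRNPU, which also binds chromatin as scaffold attachment factor A, had 31.8 and 52.8 FPKM in 3′ WRE-Mut cells and 70.8 and 68.1 FPKM in control cells (log2 fold change −0.74, SE 0.28, limma adjusted p = 0.113). For both genes 3′ WRE-Mut replicate 1 was the lowest library. HNRNPUL2, a relative of HNRNPU, had 5.89 and 6.63 FPKM in 3′ WRE-Mut cells and 9.57 and 13.3 FPKM in control cells (log2 fold change −0.76, SE 0.28, limma adjusted p = 0.106). Its locus is shared with the read-through gene HNRNPUL2-BSCL2, which had 16.8 and 17.6 FPKM in 3′ WRE-Mut cells and 15.9 in both control libraries, so the reads of the 2 genes are not cleanly told apart.

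Of the F/H group, which binds runs of guanine, HNRNPF, HNRNPH2 and HNRNPH3 were lower in both 3′ WRE-Mut libraries. HNRNPF had 64.6 and 53.3 FPKM in 3′ WRE-Mut cells and 87.0 and 82.8 FPKM in control cells (log2 fold change −0.52, SE 0.23, limma adjusted p = 0.161). HNRNPH2 had 18.99 and 16.7 FPKM in 3′ WRE-Mut cells and 24.5 FPKM in both control libraries, and HNRNPH3 had 35.3 and 43.3 FPKM in 3′ WRE-Mut cells and 52.1 and 54.3 FPKM in control cells. HNRNPH1, the most abundant of the group, did overlap, with 107 and 256 FPKM in 3′ WRE-Mut cells and 198 and 308 FPKM in control cells (log2 fold change −0.57, SE 0.40, limma adjusted p = 0.360). The replicates of HNRNPH1 differed within both groups by more than the group means did. HNRNPK, a protein with KH domains that binds cytidine-rich RNA, had 82.2 and 109 FPKM in 3′ WRE-Mut cells and 113 and 135 FPKM in control cells, just without overlap. HNRNPR, a relative of SYNCRIP, had 35.7 and 53.6 FPKM in 3′ WRE-Mut cells and 45.5 and 38.4 FPKM in control cells.

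HNRNPC, HNRNPUL1 and HNRNPL had the highest log2 fold changes among hnRNPs, and all 3 were higher in both 3′ WRE-Mut libraries. HNRNPC (chr14:21677295-21737653 of hg19) had 384 and 757 FPKM in 3′ WRE-Mut cells and 266 and 332 FPKM in control cells (log2 fold change 0.86, SE 0.33, 95% interval 0.10 to 1.61, limma adjusted p = 0.124, or 0.272 with every tested gene). The 3′ WRE-Mut replicates were further apart than 3′ WRE-Mut replicate 1 was from the controls. HNRNPUL1, a relative of HNRNPU with a role in the DNA damage response, had 68.8 and 106 FPKM in 3′ WRE-Mut cells and 49.7 and 53.6 FPKM in control cells (log2 fold change 0.72, SE 0.26, limma adjusted p = 0.110), at a locus that the table shares among 10 genes. HNRNPL, which binds CA repeats, had 157 and 295 FPKM in 3′ WRE-Mut cells and 153 and 145 FPKM in control cells (log2 fold change 0.53, SE 0.31, limma adjusted p = 0.275). For HNRNPL the absence of overlap rested on a few FPKM in 3′ WRE-Mut replicate 1, and its locus is shared among 5 genes.

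MYC binds the E-box CACGTG, so the 250 bases before the RefSeq start of each member were searched for these letters, whose reverse complement is the same. Of the 31 genes, 28 matched a RefSeq promoter by symbol (41 windows), and HNRNPA1, SRSF2 and TRA2A did not. The motif was in 5 of the 28 genes (17.9%), namely HNRNPA3, HNRNPD, HNRNPH3, HNRNPM and HNRNPH2, against 11.4% of 8812 tested protein-coding genes with a promoter. Counted by single window, the motif was in 6.34% of all 35116 windows, a share of another unit than these shares of genes. All 5 of these genes are hnRNPs with a log2 fold change below 0, as are 14 of all 18 hnRNP rows, and none passed the threshold. The other hnRNPs lower without overlap, HNRNPA0, HNRNPAB, HNRNPUL2, HNRNPU, HNRNPF and HNRNPK, did not have the motif. Neither did SRSF3, SRSF7, SRSF8 and SRSF10, which were also lower without overlap. Over the tested protein-coding genes the median log2 fold change was −0.045 with the motif and −0.0031 without it. A match is a run of letters and says nothing of binding. The upstream sequences of the 4 whose groups did not overlap are given 5′ to 3′ on the gene's strand, with each CACGTG in capitals, from RefSeq in build GRCh38.p14. The motif starts at position −27 from the start of HNRNPD (minus strand, chr4:82373992-82374241), −42 for HNRNPM (plus strand, chr19:8444725-8444974), −50 for HNRNPH3 (plus strand, chr10:68331443-68331692), and −42 and −9 for HNRNPH2 (plus strand, chrX:101407972-101408221).
HNRNPD: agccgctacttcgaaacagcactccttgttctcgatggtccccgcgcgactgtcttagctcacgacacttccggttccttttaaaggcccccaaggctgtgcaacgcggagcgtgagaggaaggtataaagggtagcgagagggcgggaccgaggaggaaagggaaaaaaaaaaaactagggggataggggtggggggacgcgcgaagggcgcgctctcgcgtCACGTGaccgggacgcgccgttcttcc
HNRNPM: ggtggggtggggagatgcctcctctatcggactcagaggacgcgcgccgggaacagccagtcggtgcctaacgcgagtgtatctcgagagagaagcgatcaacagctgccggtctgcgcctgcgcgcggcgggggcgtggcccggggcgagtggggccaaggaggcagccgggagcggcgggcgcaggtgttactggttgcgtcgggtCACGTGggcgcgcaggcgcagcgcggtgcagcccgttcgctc
HNRNPH3: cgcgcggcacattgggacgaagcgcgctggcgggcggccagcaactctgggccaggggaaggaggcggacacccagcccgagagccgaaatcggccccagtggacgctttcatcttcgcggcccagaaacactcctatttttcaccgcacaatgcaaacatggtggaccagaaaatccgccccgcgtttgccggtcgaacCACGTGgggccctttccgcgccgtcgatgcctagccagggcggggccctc
HNRNPH2: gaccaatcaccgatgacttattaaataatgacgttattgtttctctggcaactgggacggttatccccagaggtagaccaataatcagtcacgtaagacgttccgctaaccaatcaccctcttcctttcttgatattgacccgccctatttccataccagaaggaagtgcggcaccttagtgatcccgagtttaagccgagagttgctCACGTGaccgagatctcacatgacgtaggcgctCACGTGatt

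Of the SR proteins, SRSF3 and SRSF7 were lower in both 3′ WRE-Mut libraries. SRSF3 (chr6:36562145-36573377 of hg19), the smallest SR protein, which also hands mRNAs to the export machinery, had 21.1 and 24.2 FPKM in 3′ WRE-Mut cells and 37.8 and 31.7 FPKM in control cells (log2 fold change −0.59, SE 0.24, limma adjusted p = 0.136, or 0.206 with every tested gene). SRSF7, a close relative with a zinc knuckle and the same role in export, had 28.7 and 21.1 FPKM in 3′ WRE-Mut cells and 44.3 and 34.4 FPKM in control cells (log2 fold change −0.64, SE 0.26, limma adjusted p = 0.136, or 0.236 with every tested gene). Their 95% intervals were −1.13 to −0.05 and −1.24 to −0.05. SRSF10, a splicing repressor when it is dephosphorylated, was also lower without overlap, but by little, with 22.1 and 25.2 FPKM in 3′ WRE-Mut cells and 25.8 and 26.3 FPKM in control cells.

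SRSF1 and SRSF11 were higher in both 3′ WRE-Mut libraries. SRSF1 (chr17:56066399-56084707 of hg19), the prototype of the family and a known oncoprotein, had 69.1 and 118 FPKM in 3′ WRE-Mut cells and 60.7 and 54.6 FPKM in control cells (log2 fold change 0.64, SE 0.29, 95% interval −0.01 to 1.29, limma adjusted p = 0.170, or 0.297 with every tested gene). 3′ WRE-Mut replicate 1 was near the controls and replicate 2 far above them. SRSF11, an SR-related protein of the spliceosome, had 72.9 and 90.9 FPKM in 3′ WRE-Mut cells and 60.0 and 56.4 FPKM in control cells (log2 fold change 0.48, SE 0.23, limma adjusted p = 0.200).

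The other SR and TRA2 genes with a protein-coding entry overlapped between the groups. SRSF4 had 47.3 and 66.0 FPKM in 3′ WRE-Mut cells and 22.5 and 64.9 FPKM in control cells (log2 fold change 0.53, SE 0.43, limma adjusted p = 0.432), and without control replicate 1 the log2 fold change was −0.21. SRSF2, which binds exonic enhancers and is mutated in myeloid neoplasms, had 31.02 and 74.9 FPKM in 3′ WRE-Mut cells and 43.4 and 50.9 FPKM in control cells, with the 3′ WRE-Mut replicates below and above both controls. TRA2B had 65.6 and 95.4 FPKM in 3′ WRE-Mut cells and 45.6 and 84.6 FPKM in control cells, and TRA2A had 29.0 and 49.8 FPKM in 3′ WRE-Mut cells and 41.7 and 42.6 FPKM in control cells. SRSF5 had 51.9 and 77.5 FPKM in 3′ WRE-Mut cells and 88.4 and 65.8 FPKM in control cells, and SRSF6 had 30.2 and 45.0 FPKM in 3′ WRE-Mut cells and 35.0 and 32.5 FPKM in control cells. SRSF9, the most abundant SR gene here, had 105 and 126 FPKM in 3′ WRE-Mut cells and 97.7 and 119 FPKM in control cells (log2 fold change 0.09, 95% interval −0.45 to 0.62, limma adjusted p = 0.824).

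SRSF8, a retrogene copy related to SRSF2, had the lowest levels. Its row ENSG00000180771 had 1.28 and 0.293 FPKM in 3′ WRE-Mut cells and 3.15 and 2.10 FPKM in control cells (log2 fold change −1.06, SE 0.42, limma adjusted p = 0.239 with every tested gene), and its row ENSG00000271885 had 1.51 and 1.66 FPKM in 3′ WRE-Mut cells and 1.68 and 1.77 FPKM in control cells. Both lie at chr11:94800056-94804388 of hg19, so how the authors' counting split reads between them is uncertain, and neither identifier has an entry in the annotation that defined protein-coding genes.

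The 3′ WRE-Mut replicates differed from each other in one direction for most of these genes. Replicate 2 was above replicate 1 for 26 of 32 rows, against 50.3% of protein-coding genes and 63.8% of those whose mean reached 20 FPKM. Between the controls, replicate 2 was above replicate 1 for 17 of 32 rows, against 35.0% of protein-coding genes and 1082 of the 3857 whose mean reached 20 FPKM. The median difference from the control mean, on the scale of log2(FPKM + 1), was −0.51 for replicate 1 and −0.038 for replicate 2 of 3′ WRE-Mut. Replicate 1 was below both controls for 24 rows and above both for 5, while replicate 2 was below both for 15 and above both for 13. Over protein-coding genes, replicate 1 was below both controls for 40.3% and above both for 39.1%, and replicate 2 for 44.2% and 42.1%. Of the 3857 whose mean reached 20 FPKM, replicate 1 was below both controls for 1314 and above both for 1752. Replicate 2 was below both for 1263 of them and above both for 2080.

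On the scale of log2(FPKM + 1), the largest gaps between the 3′ WRE-Mut replicates were those of HNRNPH1 and SRSF2. In FPKM the largest gap was that of HNRNPC, and as a ratio that of the SRSF8 row ENSG00000180771, whose level in replicate 2 was 0.228 times that in replicate 1. SRSF2 differed from the control mean by −0.58 (replicate 1) and 0.66 (replicate 2), and HNRNPH1 by −1.19 and 0.05. HNRNPA0, HNRNPAB, HNRNPF, HNRNPH2, SRSF7 and an SRSF8 row were the 6 rows with replicate 2 under replicate 1. HNRNPD was nearly equal in both, at −0.64 and −0.62. The sign of the difference depended on the library for SRSF2, HNRNPH1, HNRNPA3, TRA2A, SRSF5, SRSF6, SRSF9 and HNRNPR, whose 2 replicates had opposite signs.

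**Figure D3:**
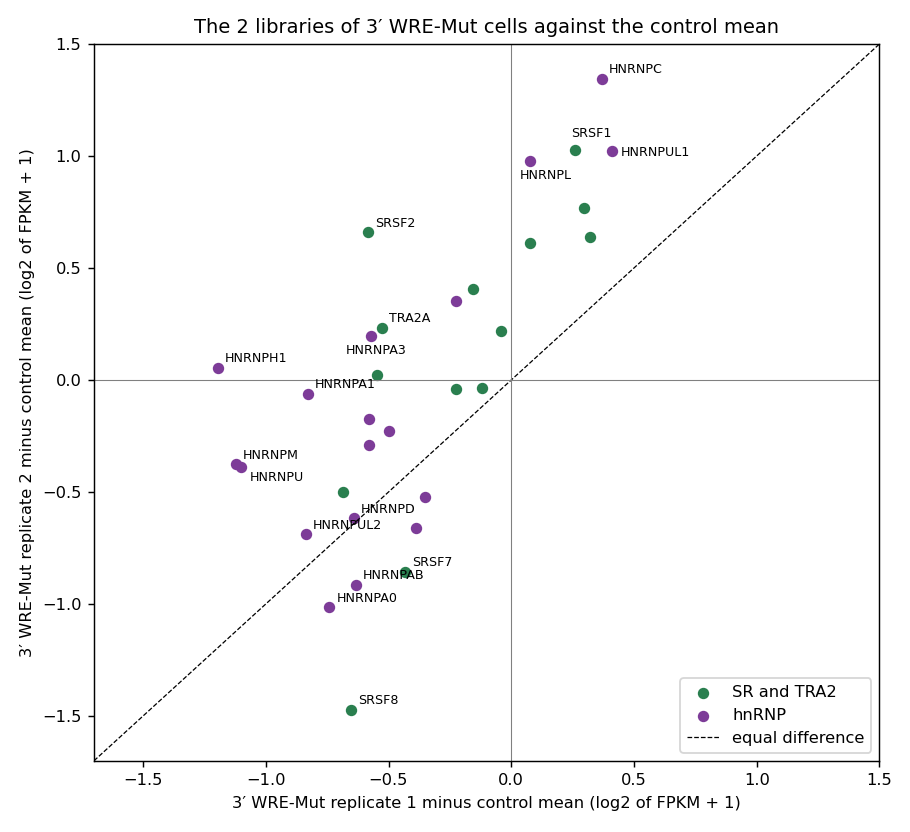
Difference from the control mean on the scale of log2(FPKM + 1) in 3′ WRE-Mut replicate 1 (horizontal axis) and replicate 2 (vertical axis), 1 point for each row. Most points lie above the dashed line of equal difference, where replicate 2 exceeds replicate 1, and HNRNPA0, HNRNPAB and SRSF7 lie below it.

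Leaving out a library changed the calls. Without 3′ WRE-Mut replicate 1, limma called 6 members higher (HNRNPC, HNRNPL, HNRNPUL1, SRSF1, SRSF2 and SRSF11) and 4 lower (HNRNPA0, HNRNPAB, HNRNPF and SRSF7) over protein-coding genes, where it then called 17.4% higher and 19.9% lower. With the other library of the clone left out, 3′ WRE-Mut replicate 2, it called 0 higher and 3 lower (HNRNPH1, HNRNPM and HNRNPU), against 4.83% and 5.82% of protein-coding genes. It called 0 without control replicate 1 (0.284% higher and 0.370% lower among protein-coding genes) and 0 without control replicate 2 (0.189% and 0.516%). In each of these fits, the lone library of its group is assumed to vary like the pair of the other group. None of the 3 lower members called without 3′ WRE-Mut replicate 2 was among the 4 called without replicate 1.

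The authors deposited a lower and an upper bound for each FPKM value, which show how precisely each library measured a gene. The distance between the bounds had a median of 149% of the FPKM value over the members, against 176% over protein-coding genes and 147% over those whose mean reached 20 FPKM. For 12 of 32 rows a lower bound was 0 in at least 1 library, against 52% of protein-coding genes and 32.1% of those whose mean reached 20 FPKM. HNRNPH1, HNRNPH2 and HNRNPUL1 had a lower bound of 0 in all 4 libraries, even though HNRNPH1 is among the most abundant members. The bounds of both 3′ WRE-Mut libraries lay apart from those of both control libraries for 0 of 32 rows, against 0.250% of all tested genes and 0.267% of protein-coding genes. Without 3′ WRE-Mut replicate 1, the bounds of 1 row, SRSF8 (ENSG00000180771), lay apart. Its upper bound was 0.667 FPKM in 3′ WRE-Mut replicate 2, and its lower bounds were 1.24 and 0.706 FPKM in control cells. The share of all genes whose bounds lay apart in this smaller comparison was not computed. For HNRNPA0, the bounds were 15.4 to 43.96 and 12.6 to 36.2 FPKM in 3′ WRE-Mut cells and 28.2 to 79.6 and 24.5 to 69.3 FPKM in control cells, so they overlapped. For HNRNPC they were 149.8 to 618 and 276 to 1238 FPKM in 3′ WRE-Mut cells and 111 to 421 and 136 to 528 FPKM in control cells.

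**Figure D4:**
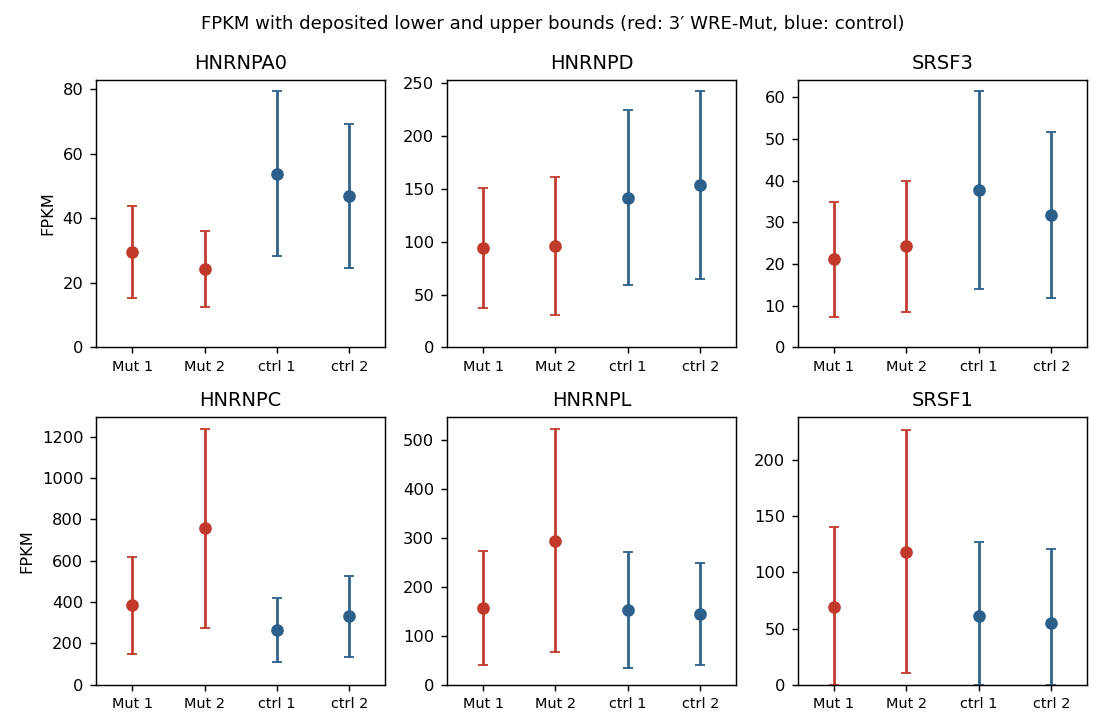
FPKM (points) with the deposited lower and upper bounds (bars) of 6 members in the 4 libraries, 3′ WRE-Mut in red and control in blue. The bars of the 2 groups overlap for every gene shown, while the points of the 2 groups overlap for none of the 6.

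The rest of the splicing machinery was described from 7 lists by role, 137 genes in all, of which 135 had a row and 130 were tested as protein-coding. Limma called 5 of them higher (3.85%) and 7 lower (5.38%) over protein-coding genes, close to the background of 4.02% and 4.31%, and 0 over all tested genes, where 28 genes in all were called. Leaving out 3′ WRE-Mut replicate 1 gave 30 higher and 23 lower (background of that fit 17.4% and 19.9%), leaving out replicate 2 of the clone gave 6 and 11 (background 4.83% and 5.82%), and the counts were 0 higher and 1 lower when either control replicate was left out. The median log2 fold change was 0.08. Of 10 SR kinases and importins 2 rose and 0 fell, with a median of 0.40. TNPO1, the importin for HNRNPA1, had 34.3 and 67.2 FPKM in 3′ WRE-Mut cells and 12.1 and 19.2 FPKM in control cells (log2 fold change 1.59, limma adjusted p = 0.0375). DYRK1A, a kinase that phosphorylates SR proteins among other targets, had 18.7 and 19.2 FPKM in 3′ WRE-Mut cells and 9.85 and 8.82 FPKM in control cells (log2 fold change 0.95, limma adjusted p = 0.0489).

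Of 36 other RNA-binding regulators, 1 rose and 3 fell, with a median of −0.0029. SFPQ, a partner of NONO in paraspeckles, had 29.9 and 31.5 FPKM in 3′ WRE-Mut cells and 74.1 and 70.3 FPKM in control cells (log2 fold change −1.21, limma adjusted p = 0.0255). EWSR1, of the FET family, had 56.5 and 30.6 FPKM in 3′ WRE-Mut cells and 117 and 115 FPKM in control cells (log2 fold change −1.46, limma adjusted p = 0.0314). The cold-inducible CIRBP fell as well (log2 fold change −1.25), and CELF1 rose (log2 fold change 1.10).

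In snRNP assembly, WDR77, the partner of the methyltransferase PRMT5, and GEMIN7, of the SMN complex, fell among 13 genes (log2 fold changes −1.49 and −1.45), and 0 rose, with a median of −0.29. Of 18 Sm and snRNP proteins, 0 rose and only SNRNP35 of the U11/U12 snRNP fell. It had 1.30 and 0.176 FPKM in 3′ WRE-Mut cells and 9.47 and 14.6 FPKM in control cells (log2 fold change −2.96, limma adjusted p = 0.00805). Of 16 branch point and U2 factors, 0 rose and SF3B3 fell (log2 fold change −1.13). Of 27 tri-snRNP and catalytic factors, SLU7 and DHX38, which act in the second step of splicing, rose (log2 fold changes 1.03 and 1.13) and 0 fell. Of 10 SR-related proteins limma called 0, while an unadjusted p under 0.05 was reached by 1 higher and 0 lower genes. The medians of these last 4 lists were −0.05, 0.14, 0.33 and 0.16.

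**Figure D5:**
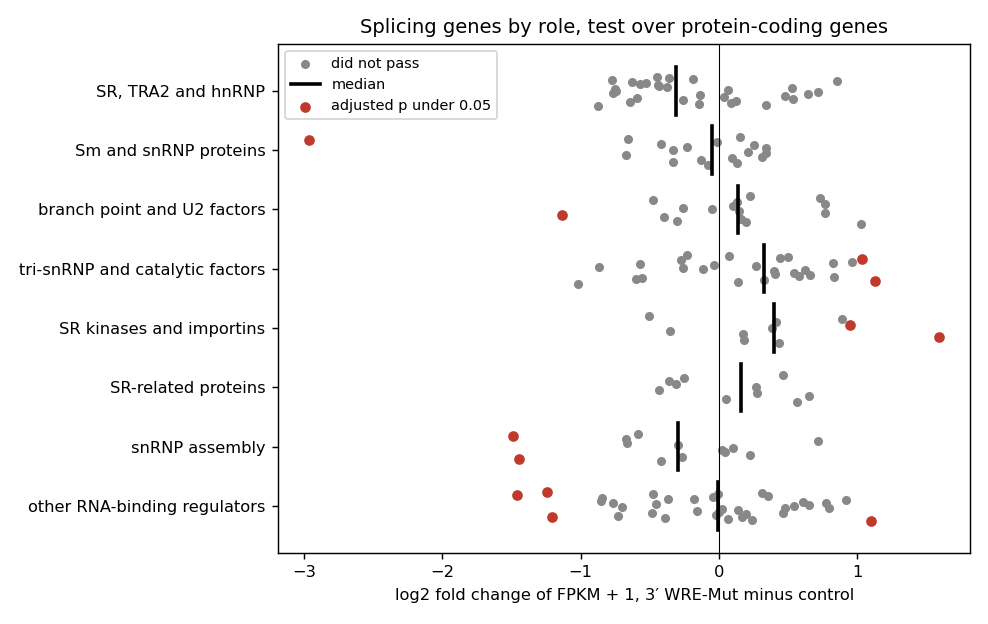
Log2 fold change of FPKM + 1 (3′ WRE-Mut minus control) of each tested gene in 8 groups of splicing genes, with the median of each group as a bar and genes with a limma adjusted p under 0.05 over protein-coding genes in red. The SR, TRA2 and hnRNP group has no red point and a median of −0.31.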

How the data were processed

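RNA-Seq values of 4 libraries, 2 per group, were used as deposited. The authors made the deposited FPKM values and their bounds with Cufflinks (2.2.1 per the submitters' notes) after quality filtering (FASTX-Toolkit) and alignment by TopHat2 2.0.9 to hg19. The methods of the authors' paper name an earlier version of Cufflinks. A further deposited table holds the authors' own Cuffdiff comparison (group values, fold changes, test statistics, p-values and q-values) and was not used. Read counts were not analysed here.

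Limma 3.58.1 in R 4.3.3 was fitted to log2(FPKM + 1) by group with a variance trend, for rows averaging 1 FPKM or more across the 4 libraries, as all 32 member rows did. It was fitted over all 14815 such rows and again over the 11631 that Gencode v44lift37 lists as protein-coding (55535 of 57815 identifiers matched). Benjamini-Hochberg adjustment ran over each whole fit, with a threshold of 0.05. Genes are said to have risen or fallen only past it in the second fit. The members, the gene lists and the second fit were chosen with earlier results of these data known. Named genes were all members, MYC, the marker lists, genes of the other lists past the threshold (at most 4 per list) and the 4 most abundant pseudogene rows. Some loci of the table span several genes, and no source used here gives the strand of the reads, so reads of overlapping genes could not be separated. Nothing says whether the biological replicates were separate cultures, so p-values measure only the spread between these libraries. The fit was tested on simulated data. Alternatives were other pseudocounts, filters, scalings, a fit without the variance trend, a block by replicate number and leaving out each library. Python 3.11.15 with matplotlib 3.10.9 drew the figures.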

Additional observations from a re-analysis of the deposited data

How the results depend on the processing

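Over all tested genes, limma called 0 members under every alternative that kept all 4 libraries. The main fit over these genes called only 0.0877% higher and 0.101% lower, so a count of 0 says little about the members. The shares under the alternatives of this fit were not computed. Over protein-coding genes the count of members higher was 0, and 0 to 6 when 1 library was left out. The count of members lower was 0, 1 with a mean of at least 5 FPKM, 1 with median-ratio scaling, 3 with quantile normalization (HNRNPA0, HNRNPD and HNRNPM), 5 with the replicate block (HNRNPA0, HNRNPAB, HNRNPM, HNRNPU and HNRNPUL2), and 0 to 4 when 1 library was left out. The block called 11.0% of protein-coding genes higher and 13.6% lower. The replicate numbers gave no pairing of libraries, since nothing says that a number marks a shared culture or day, and the differences between replicates correlated between the groups with r = 0.111 across protein-coding genes and r = 0.294 across the members. The median log2 fold change of the members ranged between −0.43 and −0.31 over the scalings, pseudocounts and filters, and between −0.51 (3′ WRE-Mut replicate 2 out) and −0.038 (3′ WRE-Mut replicate 1 out) when 1 library was left out. Median-ratio scaling moved the median of protein-coding genes to −0.04. The members whose bounds did not overlap numbered 0 to 1 when 1 library was left out, and the share over all genes was not computed there. Of the other splicing genes, 5 were higher, and 2 with a pseudocount of 0.1, 0 with no filter on low values, 8 with a mean of at least 5 FPKM, 13 with the replicate block and 0 to 30 when 1 library was left out. The count lower was 7, and 0 with no filter on low values and 11 with quantile normalization. It was 12 with the replicate block and 1 to 23 when 1 library was left out. The main fit called 4.02% of all protein-coding genes higher and 4.31% lower. These shares were 6.52% and 5.96% with a mean of at least 5 FPKM, and 5.64% and 5.45% with quantile normalization. They were 11.0% and 13.6% with the replicate block. No share was computed for a pseudocount of 0.1 or for no filter. The counts thus also depend on how many genes each fit called, and their difference from these shares was not tested.

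The sign turned for some members. With quantile normalization the log2 fold change was −0.047 for HNRNPR, −0.090 for SRSF2, −0.10 for SRSF9 and 0.090 for SRSF8 (ENSG00000271885). With 1 library left out it ranged between −0.57 and 0.20 for HNRNPA3, −1.19 and 0.054 for HNRNPH1, −0.22 and 0.35 for HNRNPR, −0.58 and 0.66 for SRSF2, −0.21 and 1.28 for SRSF4, −0.55 and 0.023 for SRSF5, −0.16 and 0.41 for SRSF6, −0.054 and 0.23 for SRSF9, −0.53 and 0.23 for TRA2A and between −0.095 and 0.78 for TRA2B. The cause was not tested.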

Other observations

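Members of these families have many processed pseudogenes, and reads of 50 bases may not tell a copy from its parent. The table lists 124 rows named as pseudogenes of a member, 75 of them of HNRNPA1, and 4 had a mean of at least 1 FPKM. HNRNPCP2 had 17.1 and 35.1 FPKM in 3′ WRE-Mut cells and 12.2 and 14.5 FPKM in control cells (log2 fold change 0.83, limma adjusted p = 0.280 with every tested gene). Its parent HNRNPC had the same order of the 4 libraries and a log2 fold change of 0.86. The pseudogenes of HNRNPA1 added up to 4.14 and 7.92 FPKM in 3′ WRE-Mut cells and 5.87 and 7.83 FPKM in control cells, and HNRNPA1P1, HNRNPA1P48 and HNRNPA1P52 had log2 fold changes of −0.12, −0.18 and −0.02. How the authors' counting split such reads was not tested.

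HNRNPU-AS1, antisense to HNRNPU and with no strand to separate them, had 2.63 and 4.49 FPKM in 3′ WRE-Mut cells and 2.74 and 5.51 FPKM in control cells. RPL36A-HNRNPH2, the read-through gene over HNRNPH2, had 1.01 and 3.43 FPKM in 3′ WRE-Mut cells and 0.0480 and 4.32 FPKM in control cells. The 14 members with a locus of their own had a median log2 fold change of −0.20, and the 18 rows at a locus shared with other rows a median of −0.37. The most widely shared loci were those of HNRNPA1 (11 genes), HNRNPUL1 (10), HNRNPA3 (8), SRSF2 (6) and HNRNPL (5).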
